A study of Mus musculus with 6 samples.

Results

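The levels of 10 genes of the integrated stress response were examined in Hspa9 cKO thymocytes and their WT counterparts. They comprise 6 transcription factors, namely Atf3, Atf4, Atf5, Ddit3 (which encodes CHOP), Cebpb and Cebpg, and 4 stress-induced effectors, namely Trib3, Chac1, Nupr1 and Gdf15. The genes were chosen by name for their role, with earlier results of these data known. They were found in the tables by Ensembl gene ID, with their position checked, and 11753 genes had a level in all. Of the 10 genes, 6 were listed under their own ID (Atf4, Atf5, Ddit3, Trib3, Chac1 and Nupr1) and 4 were not (Atf3, Cebpb, Cebpg and Gdf15).

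This response is a program by which cells answer trouble in the mitochondria, the endoplasmic reticulum or the amino acid supply. Kinases that phosphorylate the translation factor eIF2α slow protein synthesis in general, while the mRNA of the transcription factor ATF4 is translated more; the output of ATF4 is therefore set largely at translation, which RNA levels do not show. ATF4 binds DNA together with C/EBP-family partners and turns on genes for amino acid uptake and synthesis, further transcription factors such as CHOP, ATF3 and ATF5, and late targets that limit growth, including TRIB3, CHAC1 and NUPR1. Most of these factors carry a basic leucine zipper (bZIP), the domain through which they pair and bind DNA.

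RNA was sequenced from DN3 thymocytes of untreated mice, 5 weeks old, that were either Hspa9 cKO or WT, with 3 libraries per group, to ask what GRP75 does in early T cell development. DN3 cells are precursors that lack CD4, CD8, CD44 and markers of other lineages and carry CD25. GRP75 (mortalin), the product of Hspa9, is an HSP70 chaperone that pulls proteins into the mitochondrial matrix and helps them fold. In the label cKO, usually read as conditional knockout, the Cre driver and the deleted exons go unnamed, and nothing says whether the WT mice carried a Cre or a floxed allele. Separate mice for the 3 libraries of a group are not stated either. The p-values below therefore cover the spread among libraries, which could be technical.

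Each deposited value is an FPKM (fragments scaled to transcript length and to library size) for one event of transcript structure, such as a transcript start, a transcript end or a skipped exon. A gene's level is the summed FPKM of its starts, or of its ends where no start was listed, and a gene that a library does not list is given as unlisted and entered as 0, which can be a failed estimate. No read counts were given, so depth is unknown. The Hspa9 cKO libraries listed 90561 to 90970 distinct events and the WT libraries 87403 to 89771. The summed Hspa9 starts overlapped between the groups, at 109.7 to 123.5 FPKM in Hspa9 cKO and 105.4 to 121.7 FPKM in WT, while the structure of the transcripts differed. The event that includes exons 2 to 4 was at 24.9, 16.8 and 25.2 FPKM in Hspa9 cKO libraries 1 to 3 and at 105.3, 108.8 and 104.6 FPKM in WT libraries 1 to 3. An event that skips these exons was at 76.9, 89.4 and 68.9 FPKM in Hspa9 cKO libraries 1 to 3. In WT that event was unlisted in replicate 1 and at 12.3 and 17.0 FPKM in replicates 2 and 3. Another skipping event, with a different splice edge, was at 15.3, 17.3 and 15.6 FPKM in Hspa9 cKO libraries 1 to 3 and unlisted in WT. Of 16 DN3 markers, 14 were listed, and Il2ra, which encodes CD25, stood between 366.5 and 382.9 FPKM in Hspa9 cKO and between 145.3 and 158.4 FPKM in WT. Cd44 was below 1 FPKM in each of the 6 libraries. In bulk RNA of this kind, fewer cells of a type and less RNA per cell cannot be told apart.

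Atf5, Trib3, Chac1, Nupr1 and Ddit3 were higher in Hspa9 cKO than in WT, and Atf4 was not called different. In the test across all 8883 genes that reached 1 FPKM in at least 3 libraries (limma on log2(FPKM + 1), Benjamini-Hochberg adjusted p under 0.05, two-sided), 745 genes (8.39%) were called higher and 518 (5.83%) lower; after rescaling by trimmed means of log ratios 580 were higher and 681 lower. All 6 listed genes entered that test, 5 of them were called higher and 0 lower (also 0 lower at an unadjusted p under 0.05). The genes were chosen with earlier results of these data known, so this count is not independent evidence. Trib3, Chac1 and Nupr1 reached 1 FPKM in the Hspa9 cKO libraries alone, so they had to differ in order to be tested, and their calls are a description. The genes that reached 1 FPKM in both groups were Atf4, Atf5 and Ddit3, and of these Atf5 and Ddit3 were called. In each of the 6 listed genes, the 3 libraries of one group lay apart from the 3 of the other, which also held for 3478 (39.2%) of all tested genes. For 3 against 3 libraries, the exact permutation test cannot give a p below 0.1.

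**Figure D1:**
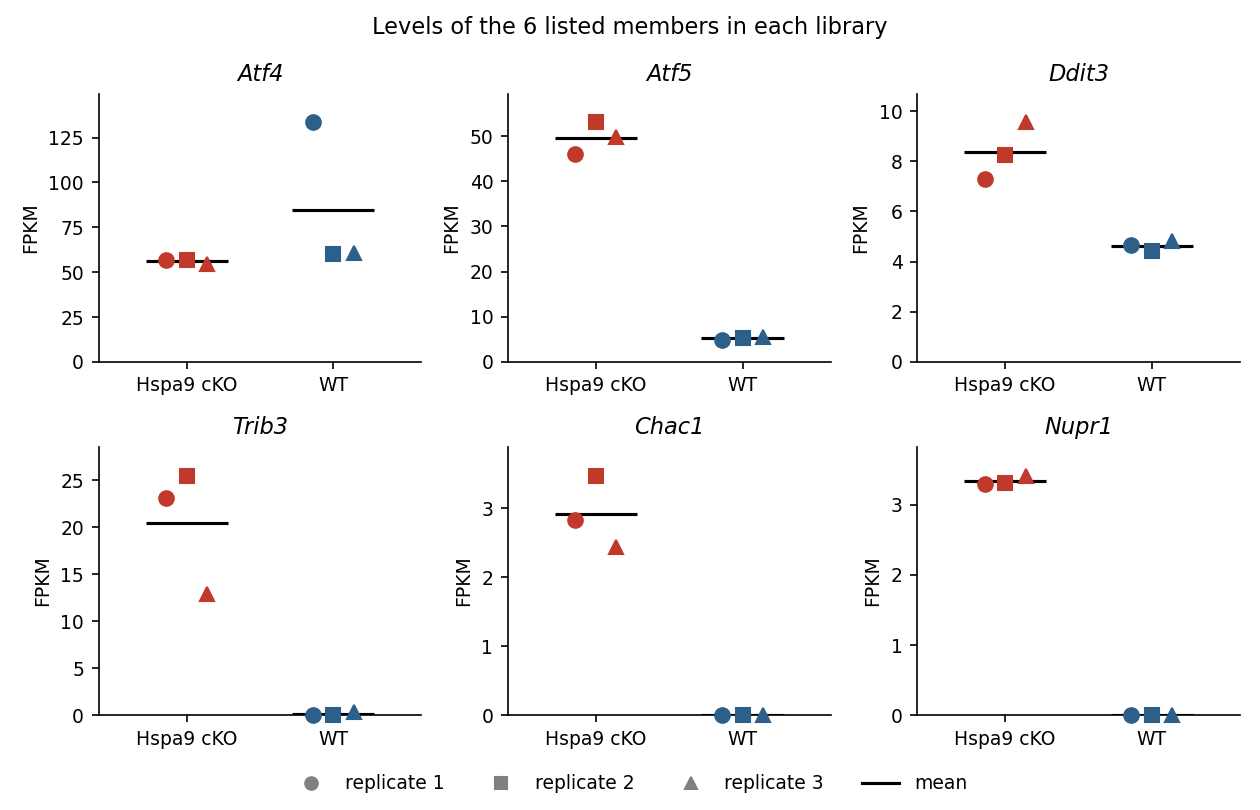
Level in FPKM (vertical axes, each starting at 0) of the 6 listed genes in each Hspa9 cKO library (left, red) and each WT library (right, blue). The group mean is a line, and each replicate number has its own symbol. The labels do not say that these numbers pair the groups. Atf5, Ddit3, Trib3, Chac1 and Nupr1 are higher in each Hspa9 cKO library than in any WT library, while WT replicate 1 stands apart at 133.5 FPKM for Atf4.

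The levels themselves ranked the genes differently in the groups. In Hspa9 cKO the order by FPKM was Atf4 (54.6 to 56.9), Atf5 (46.1 to 53.1), Trib3 (12.9 to 25.5), Ddit3 (7.28 to 9.56), and then Nupr1 (3.30 to 3.42) and Chac1 (2.44 to 3.47), whose ranges overlapped. In WT, Atf4 (60.0 to 133.5) stood far above Atf5 (4.81 to 5.48) and Ddit3 (4.41 to 4.82), whose ranges overlapped, while Trib3 was at or below 0.298 FPKM and Chac1 and Nupr1 were unlisted. In FPKM, Atf5, which was close to Ddit3 in WT, was thus close to Atf4 in Hspa9 cKO. An FPKM depends on how reads were divided among transcripts, which limits such comparisons between genes.

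Atf4 (ENSMUSG00000042406; mm10 chromosome 15, 80255184 to 80257541, plus strand) encodes the central transcription factor of the response. Its level was 56.5, 56.9 and 54.6 FPKM in Hspa9 cKO libraries 1 to 3 and 133.5, 60.0 and 60.9 FPKM in WT libraries 1 to 3. Every Hspa9 cKO library lay below every WT library, but the WT spread came from WT replicate 1, which was far above the others. The group means were 56.0 ± 1.24 FPKM in Hspa9 cKO and 84.8 ± 42.2 FPKM in WT (SD, n = 3 each), and the log2 change was -0.48 ± 0.31 (standard error; limma, adjusted p = 0.339). Without WT replicate 1 the WT mean was 60.4 FPKM and the log2 change -0.11, again not called; over the 15 alternatives tried, the adjusted p lay between 0.243 and 0.478.

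The starts of Atf4 show where WT replicate 1 differs. GENCODE annotates a long first exon of 502 nucleotides and a short one of 100 nucleotides, which is joined to a second exon across an intron of 283 nucleotides that the long exon retains. Starts with the short first exon were at 54.1, 52.1 and 49.6 FPKM in Hspa9 cKO libraries 1 to 3, unlisted in WT replicate 1, and at 54.9 and 58.0 FPKM in WT replicates 2 and 3. Starts with the long first exon were at 2.41, 4.86 and 5.05 FPKM in Hspa9 cKO and at 133.5, 5.05 and 2.93 FPKM in WT. The long form made up 4.26%, 8.53% and 9.24% of Atf4 starts in Hspa9 cKO, and 100%, 8.41% and 4.80% in WT. In WT replicate 1 the whole Atf4 level was thus assigned to the long form, which in the other 5 libraries was the minor one. Whether this is a property of that library or of the division of reads among transcripts was not tested.

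Atf5 (ENSMUSG00000038539; mm10 chromosome 7, 44812256 to 44816658, minus strand) encodes a bZIP factor that, in mammalian cells under mitochondrial stress, induces chaperones and proteases of the mitochondrial matrix. Its level was 46.1, 53.1 and 49.8 FPKM in Hspa9 cKO libraries 1 to 3 and 4.81, 5.39 and 5.48 FPKM in WT libraries 1 to 3. The lowest Hspa9 cKO library was well above the highest WT library, and the spread within each group was small. The mean rose to 49.7 ± 3.47 FPKM in Hspa9 cKO, against 5.23 ± 0.365 FPKM in WT (SD, n = 3 each), a 9.50-fold difference of the means. The log2 change was 3.02 ± 0.09 (standard error; limma, adjusted p = 0.000189), rank 8 among the changes of the 8883 genes from the highest down.

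Nearly the whole difference in Atf5 lay at its upstream first exon. Starts at that exon were at 45.9, 52.6 and 49.7 FPKM in Hspa9 cKO and at 4.41, 5.24 and 4.82 FPKM in WT. Starts at the downstream first exon, whose splice edge lies 920 bases further along, were at 0.205, 0.425 and 0.164 FPKM in Hspa9 cKO and at 0.400, 0.148 and 0.659 FPKM in WT, so the groups overlapped (exact two-sided permutation test, p = 0.7, n = 3 each). The upstream exon carried 99.5% ± 0.246 of Atf5 starts in Hspa9 cKO and 92.3% ± 4.67 in WT (SD; exact permutation p = 0.1, n = 3 each). On the opposite strand, 82 bases of the first exon of Il4i1, which encodes an amino acid oxidase, overlap the upstream exon of Atf5. No source used here says whether the libraries kept strand. The Il4i1 starts were at 47.5, 49.6 and 49.9 FPKM in Hspa9 cKO and at 58.9, 59.8 and 60.2 FPKM in WT, lower where Atf5 was higher.

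Ddit3 (ENSMUSG00000025408; mm10 chromosome 10, 127290774 to 127296288, plus strand) encodes CHOP, a bZIP factor that pairs with C/EBP proteins and is known for promoting death when stress persists. Its level was 7.28, 8.24 and 9.56 FPKM in Hspa9 cKO libraries 1 to 3 and 4.65, 4.41 and 4.82 FPKM in WT libraries 1 to 3. The groups did not overlap, and the change was smaller than that of Atf5. The means were 8.36 ± 1.14 FPKM in Hspa9 cKO and 4.63 ± 0.207 FPKM in WT (SD, n = 3 each), a 1.81-fold difference and a log2 change of 0.73 ± 0.12 (standard error; limma, adjusted p = 0.0144; rank 517 of 8883). The call was lost without Hspa9 cKO replicate 2 (limma, adjusted p = 0.0538) and without WT replicate 1 (adjusted p = 0.0505); over all 16 alternatives the adjusted p lay between 0.0132 and 0.0615 and the log2 change between 0.64 and 0.83.

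The tables list several start forms of Ddit3. Starts whose first exon ran unspliced for 3134 bases, to the end of annotated exon 2, were at 5.15, 4.25 and 4.31 FPKM in Hspa9 cKO and at 2.77, 2.82 and 3.02 FPKM in WT, and the groups did not overlap (difference 1.70 FPKM; exact permutation p = 0.1, n = 3 each). Starts whose first exon ran to the end of exon 3 were at 1.55, 2.16 and 1.66 FPKM in Hspa9 cKO and at 1.88, 1.59 and 1.80 FPKM in WT, with overlapping groups (difference 0.0328 FPKM; exact permutation p = 0.9, n = 3 each). Starts with a first exon spliced to exon 2, at several different splice edges, none of them the annotated one, summed to 0.583, 1.83 and 3.59 FPKM in Hspa9 cKO and were unlisted in WT. These spliced forms made up 8.001%, 22.2% and 37.5% of the Ddit3 starts in Hspa9 cKO libraries 1 to 3. The last exon of Ddit3 overlaps that of Mars, the cytosolic methionyl-tRNA synthetase, by 68 bases on the opposite strand; the Mars end stood at 9.62, 20.3 and 22.8 FPKM in Hspa9 cKO and at 14.2, 20.1 and 22.8 FPKM in WT, so the groups overlapped there.

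**Figure D2:**
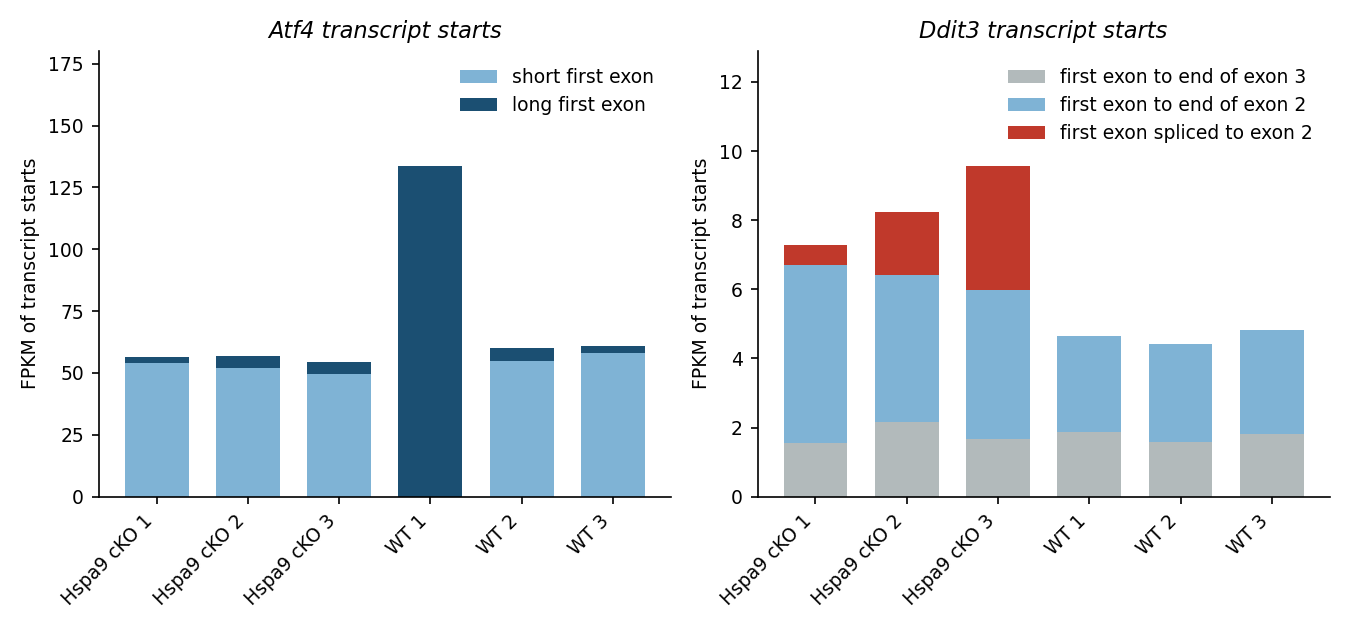
Summed FPKM of transcript starts per library (vertical axes from 0; the 3 Hspa9 cKO libraries left, the 3 WT libraries right), stacked by first-exon form, for Atf4 (left panel) and Ddit3 (right panel). For Atf4 the long first exon takes 100% in WT replicate 1 and between 4.26% and 9.24% in the other libraries. For Ddit3 the forms spliced to exon 2 are summed over different splice edges. No single edge is listed in all 3 Hspa9 cKO libraries, and none is listed in WT.

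Trib3 (ENSMUSG00000032715; mm10 chromosome 2, 152337422 to 152344032, minus strand) encodes a pseudokinase that is induced by ATF4 and CHOP and restrains AKT signalling and ATF4 itself. Its level was 23.1, 25.5 and 12.9 FPKM in Hspa9 cKO libraries 1 to 3; in WT it was 0.00526 FPKM in replicate 1, unlisted in replicate 2 and 0.298 FPKM in replicate 3. Hspa9 cKO replicate 3 was the lowest of its group and still far above each WT library. The mean was 20.5 ± 6.73 FPKM in Hspa9 cKO (SD, n = 3), and the log2 change was 4.24 ± 0.27 (standard error; limma, adjusted p = 0.00107), rank 3 of 8883. On a scale with a pseudocount of 0.1 in place of 1 the log2 change was 6.94. The size of the change thus depends on the added constant, because Trib3 was so low in WT. The 0 entered for WT replicate 2 can also be a failed estimate. Trib3 reached 1 FPKM in the Hspa9 cKO libraries alone, so its adjusted p and rank are a description.

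The Trib3 transcripts in Hspa9 cKO were of the coding form. The end in the last exon of the coding transcript was at 23.1, 25.5 and 12.8 FPKM in Hspa9 cKO and, in WT, at 0.00526 FPKM in replicate 1 alone. An end in exon 3, joined to a form of exon 2 that is 44 nucleotides shorter, matches an annotated processed transcript and was at 0.00902, 0.0176 and 0.0270 FPKM in Hspa9 cKO. That shorter form accounted for the whole 0.298 FPKM listed in WT replicate 3.

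Chac1 (ENSMUSG00000027313; mm10 chromosome 2, 119351229 to 119354381, plus strand) encodes an enzyme that degrades glutathione and is induced by ATF4. Its level was 2.83, 3.47 and 2.44 FPKM in Hspa9 cKO libraries 1 to 3, and it was unlisted in the 3 WT libraries (limma, adjusted p = 0.00175). Nupr1 (ENSMUSG00000030717; mm10 chromosome 7, 126623249 to 126630861, minus strand) encodes a small chromatin-associated stress protein, and its level comes from transcript ends because no start was listed. That level was 3.30, 3.31 and 3.42 FPKM in Hspa9 cKO libraries 1 to 3, and the gene was unlisted in the 3 WT libraries (limma, adjusted p = 0.000917). No fold is given for either gene, because with WT listed at 0 its size rests on the added constant. Both genes entered the test through the Hspa9 cKO libraries alone, so their adjusted p-values are a description. Of the 11753 genes with a level, 73 (0.621%) were listed in all 3 Hspa9 cKO libraries and in no WT library, and 11 (0.0936%) the other way round; among the 73, Nupr1 was rank 3 and Chac1 rank 4 by mean level. Among the 8883 tested genes, 13 (0.146%) were listed in the Hspa9 cKO libraries alone in this way, Nupr1 and Chac1 among them, and 0 in the WT libraries alone.

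The Hspa9 cKO libraries differed in which form of Nupr1 exon 2 they listed. The form of the coding transcript was at 1.73, 1.78 and 3.36 FPKM. A longer form that belongs to an annotated transcript subject to nonsense-mediated decay was at 1.13 and 1.11 FPKM in replicates 1 and 2 and unlisted in replicate 3. Another form of that kind was at 0.439, 0.420 and 0.0515 FPKM. The summed level was nevertheless within 3.30 to 3.42 FPKM.

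Atf3, Cebpb, Cebpg and Gdf15 were unlisted in the 6 libraries under their own IDs, so no level can be given for them. ATF3 is a bZIP repressor and activator induced by many stresses (mm10 chromosome 1, 191170296 to 191218039, minus strand), C/EBPβ (chromosome 2, 167688915 to 167690418, plus strand) and C/EBPγ (chromosome 7, 35046422 to 35056573, minus strand) are partners of ATF4 and CHOP, and GDF15 (chromosome 8, 70629393 to 70632456, minus strand) is a secreted stress hormone. An unlisted gene is not shown to be silent, since the tables leave out many genes and cover those with several transcripts better than others. Of protein-coding genes with 1 annotated transcript 14.6% had a level, against 57.2% of those with several. Atf3, Cebpg and Gdf15 have 3, 4 and 2 annotated transcripts, so they belong to the better covered kind. Why Atf3 and Gdf15 were unlisted was not tested. Cebpb has a single exon, and of 1344 protein-coding genes with 1 exon in every transcript 17 had a level. A start event at the first exon of Cebpg was listed under the ID of the gene Gm44836, at 7.45 FPKM in Hspa9 cKO replicate 2 and 5.21 FPKM in Hspa9 cKO replicate 3, and in no other library.

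**Figure D3:**
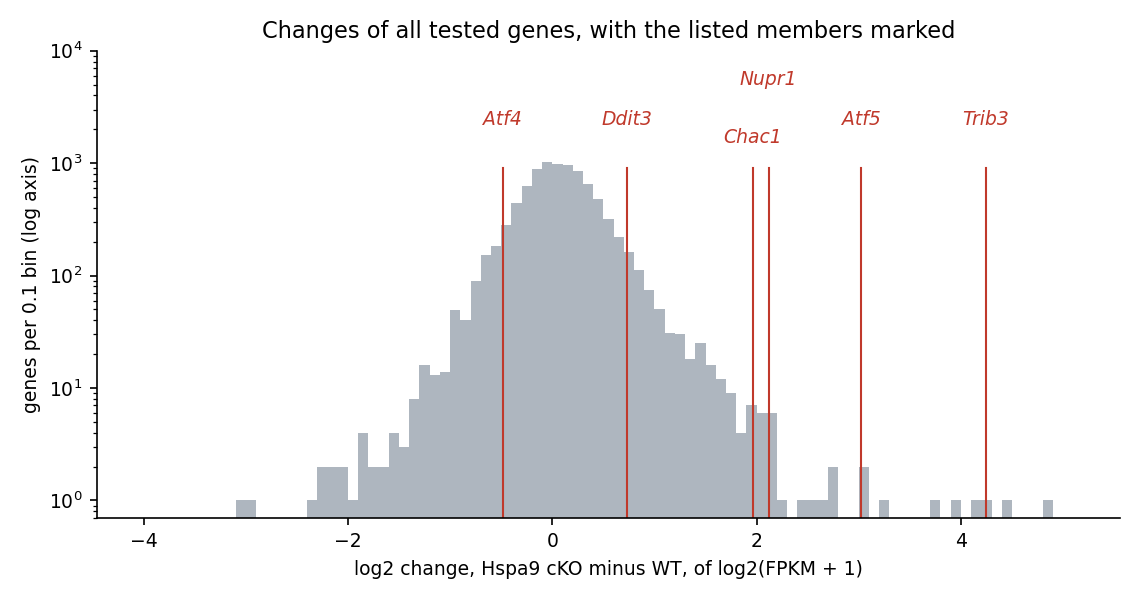
Number of genes (vertical log axis) per bin of 0.1 in log2 change, Hspa9 cKO minus WT, of log2(FPKM + 1), for the 8883 tested genes, with red lines at the 6 listed stress-response genes. Trib3 at 4.24 and Atf5 at 3.02 lie in the sparse upper tail, Ddit3 at 0.73 on the upper shoulder and Atf4 at -0.48 below the centre. The positions of Chac1 and Nupr1, unlisted in WT, rest on the added constant of 1, and that of Trib3 depends on it.

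Once the levels were known, the promoters of the 10 genes were searched for the core of the C/EBP-ATF response element. This is the composite site that ATF4 binds with a C/EBP partner. The letters searched were TGATGNAA on both strands, in windows of 300 bases (250 before and 50 after each RefSeq start, RefSeq GRCm38.p6, the build also called mm10), with no other motif searched. They occurred in 1304 of 32851 windows (3.97%), and 4.51% of the 27025 genes had a window with them. All 10 stress-response genes matched by symbol, with 12 windows, and 4 of them held the letters: Atf3, Chac1, Nupr1 and Trib3. Of the tested genes on the ATF4 target lists given below, 25 had a window and 8 of these held the letters. They were Asns, Iars, Jdp2, Pycr1, Slc1a4 and Yars, which were called higher, and Gars and Tars, which were not called. The sequences below are those of Chac1, Nupr1 and Trib3 and of Asns, the amino acid gene whose level across libraries was most like that of Atf5. Each runs 5′ to 3′ on the strand of its gene, and capitals mark the match.
Chac1, chr2:119351019-119351086, plus strand, match from base -193 to -186: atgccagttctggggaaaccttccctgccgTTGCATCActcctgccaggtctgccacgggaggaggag
Nupr1, chr7:126625562-126625591, minus strand, match from base -110 to -103: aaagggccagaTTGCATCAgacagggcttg
Trib3, chr2:152344028-152344057, minus strand, match from base 14 to 21: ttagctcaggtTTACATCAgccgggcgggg
Asns, chr6:7693214-7693243, minus strand, match from base -23 to -16: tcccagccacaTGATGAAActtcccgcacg
Positions are counted from the RefSeq start as base 0, and the Nupr1, Trib3 and Asns stretches overlap an annotated exon of their gene. The matched letters were the same in Chac1 and Nupr1. A match describes letters and not binding, and its absence from the windows of Atf4, Atf5, Ddit3, Cebpb, Cebpg and Gdf15 says nothing of sites elsewhere.

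The other genes of the pathway were counted from lists of known ATF4 targets, of the steps above ATF4 and of CHOP targets. These lists were drawn up with earlier results of these libraries known, so their direction is not independent evidence. Of the 44 further ATF4 targets 34 were tested, of which 18 were higher, 0 lower and 16 not called (2 were lower at an unadjusted p under 0.05, limma). Their median log2 change was 0.43, and that of all 8883 genes was 0.06. Over the ATF4, upstream and CHOP lists together, 48 of 60 genes were tested, with 20 higher, 1 lower and 27 not called; 4 of the 20 (Gpt2, Slc7a3, Slc6a9 and Slc1a4, named for this after their values were seen) reached 1 FPKM in no WT library and had to differ in order to be tested.

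Enzymes that make amino acids and one-carbon units were higher in 5 of 10 tested genes and lower in 0, with a median log2 change of 0.46. Asns, asparagine synthetase, was at 17.8, 20.0 and 20.1 FPKM in Hspa9 cKO and at 1.19, 1.18 and 0.973 FPKM in WT, a log2 change of 3.26 (limma, adjusted p = 0.000189). Mthfd2, a mitochondrial folate enzyme, averaged 53.5 ± 1.80 FPKM in Hspa9 cKO and 30.8 ± 0.948 FPKM in WT, and Aldh18a1, which starts proline synthesis, averaged 39.4 ± 1.73 FPKM in Hspa9 cKO and 24.1 ± 1.05 FPKM in WT (SD, n = 3 each; limma, adjusted p = 0.00245 and 0.00455). Not every enzyme of the list moved: Phgdh, the first enzyme of serine synthesis, had a log2 change of -0.14 and Psat1, the next one, of 0.23, and neither was called.

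Amino acid transporters were higher in 5 of 7 tested genes and lower in 0, with a median log2 change of 0.69. Slc7a3, a carrier of cationic amino acids, was at 2.73, 3.99 and 3.32 FPKM in Hspa9 cKO and unlisted in WT. Slc6a9, a glycine transporter, was at 6.47, 6.73 and 7.72 FPKM in Hspa9 cKO and, in WT, at 0.714 FPKM in replicate 1 and unlisted in the others. Slc1a4, a carrier of neutral amino acids, was at 4.24, 3.94 and 4.09 FPKM in Hspa9 cKO and, in WT, at 0.451 FPKM in replicate 1 and unlisted in the others. These 3 carriers reached 1 FPKM in the Hspa9 cKO libraries alone, so they had to differ in order to be tested, and the count of 5 rests partly on that filter; their values are a description.

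Genes for aminoacyl-tRNA synthetases and the tRNA exporter Xpot were higher in 5 of 12 tested genes and lower in 0, with a median log2 change of 0.40. The cytosolic tyrosyl-, cysteinyl- and seryl-tRNA synthetases Yars, Cars and Sars rose by 0.61, 0.86 and 0.62 on the log2 scale (limma, adjusted p = 0.00638, 0.00686 and 0.00698). The list of growth and translation brakes had 3 of 5 tested genes higher and 0 lower. Eif4ebp1, which represses cap-dependent translation, averaged 26.1 ± 0.377 FPKM in Hspa9 cKO and 5.86 ± 0.436 FPKM in WT, and Sesn2, an inhibitor of the growth kinase complex mTORC1, averaged 6.27 ± 0.394 FPKM in Hspa9 cKO and 1.20 ± 0.120 FPKM in WT (SD, n = 3 each; limma, adjusted p = 0.000455 and 0.00102). Jdp2, a bZIP repressor, had a log2 change of 0.71 (limma, adjusted p = 0.0215) that was no longer called without Hspa9 cKO replicate 1 or 2 or without WT replicate 1 or 2. Its call was also lost with transcript ends used before starts (log2 change 0.45), with gene IDs taken without the position check and with a block for replicate number.

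Upstream of ATF4, 9 of 11 tested genes were not called. In that list 1 gene was higher and 1 lower, with a median log2 change of 0.07. Eif2ak2, the eIF2α kinase PKR that senses double-stranded RNA, averaged 9.97 ± 0.222 FPKM in Hspa9 cKO and 4.98 ± 0.210 FPKM in WT (SD, n = 3 each; limma, adjusted p = 0.00366). Ppp1r15a, which encodes the phosphatase subunit GADD34 that reverses eIF2α phosphorylation and is itself a CHOP target, averaged 15.2 ± 0.381 FPKM in Hspa9 cKO and 21.1 ± 2.38 FPKM in WT (SD, n = 3 each; limma, adjusted p = 0.0342), a call that leaving out WT replicate 2 kept and leaving out any of the other 5 libraries ended. Of 4 tested CHOP targets 2 were not called; Ppp1r15a was the one lower and Bbc3, the death gene that encodes PUMA, the one higher, at 5.86 ± 1.10 FPKM in Hspa9 cKO and 2.58 ± 0.219 FPKM in WT (SD, n = 3 each; limma, adjusted p = 0.0142, not called without Hspa9 cKO replicate 3).

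**Figure D4:**
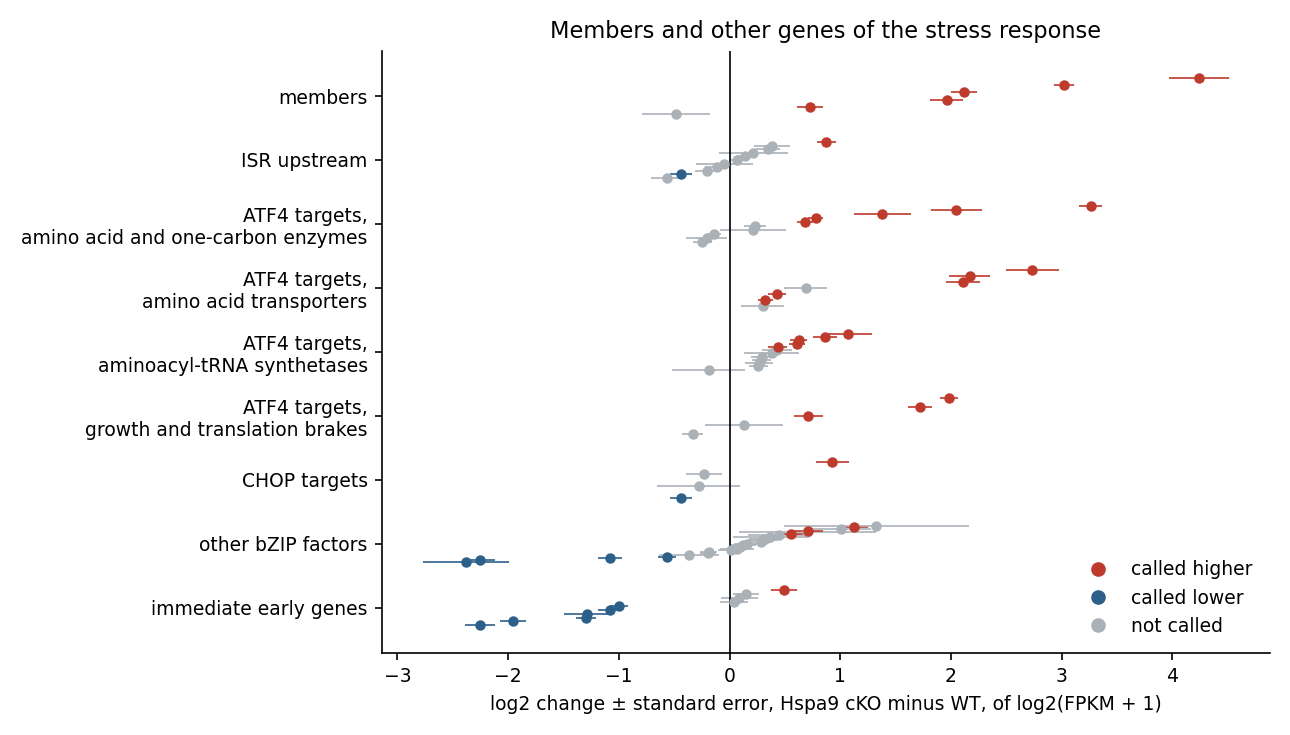
Log2 change, Hspa9 cKO minus WT, of log2(FPKM + 1) with its standard error (horizontal axis; points to the right are higher in Hspa9 cKO) for each tested gene, by list; red points are called higher, blue points called lower and grey points not called. The row of members holds the 6 listed stress-response genes; the ATF4 target rows hold red and grey points and no blue ones, and the row of immediate early genes holds 6 blue points.

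Other bZIP factors did not move in one direction. Of 23 tested genes of that family outside the 10, 3 were higher, 4 lower and 16 not called. Xbp1, the factor of the endoplasmic reticulum stress response that IRE1 activates by splicing, averaged 78.7 ± 11.1 FPKM in Hspa9 cKO and 35.6 ± 4.05 FPKM in WT (SD, n = 3 each; limma, adjusted p = 0.00649). Nfe2l1, a regulator of proteasome genes, had a log2 change of 0.55 (limma, adjusted p = 0.0290) that was not called without any one of the 6 libraries, and Jdp2 is given above. Fosb and Fos, subunits of the AP-1 factor, were lower, with means of 3.60 ± 0.598 and 33.2 ± 4.25 FPKM in Hspa9 cKO, against 20.9 ± 1.99 and 70.9 ± 3.44 FPKM in WT (SD, n = 3 each; limma, adjusted p = 0.000954 and 0.00414). Mafk, a small Maf protein, had a log2 change of -0.57 (limma, adjusted p = 0.00993).

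Trib1 and most tested immediate early genes were lower in Hspa9 cKO. Trib1, another pseudokinase of the tribbles family, fell to 3.38 ± 0.271 FPKM in Hspa9 cKO, against 12.2 ± 0.663 FPKM in WT (SD, n = 3 each; limma, adjusted p = 0.000974). Immediate early genes are switched on within minutes of a stimulus. Of 20 such genes on the list 10 were tested. Of these 6 were lower and 1 higher, against 5.83% and 8.39% of all tested genes. Jun, Junb, Ier2, Ier5, Zfp36, Btg2 and Cyr61 were unlisted. The summed level of the listed ones was 130.2 to 151.6 FPKM in Hspa9 cKO and 242.4 to 265.4 FPKM in WT. Klf4 and Nr4a1, transcription factors of that list, fell by 1.96 and 1.30 on the log2 scale (limma, adjusted p = 0.000954 and 0.00148). Klf2 was the one higher, by 0.49 (limma, adjusted p = 0.0419), and was not called without any one of the 6 libraries. Atf3 belongs to the same class of rapidly induced genes and has no level here.

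Across the 6 libraries, the genes whose levels ran most like those of the factors were found by the Euclidean distance between log2(FPKM + 1) values centred on the WT mean, as a description with no test. For Atf5 they were Asns (distance 0.470), Fam129a (0.646) and Slc6a9 (0.927). For Ddit3 they were Tmem71 (0.137), Gbp11 (0.181) and Pdlim2 (0.181). For Atf4 they were Anapc10 (0.256), Dnmt3a (0.425) and Pop4 (0.481), all of them highest in WT replicate 1, as Atf4 was. Fam129a was at 7.77, 7.86 and 7.61 FPKM in Hspa9 cKO and at 0.0937, 0.695 and 0.0735 FPKM in WT.

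Markers of other cells were examined beside these levels. DN1 and DN2 progenitor markers summed to 8.68 to 10.8 FPKM in Hspa9 cKO and 8.56 to 11.7 FPKM in WT, with 0 of 2 tested genes called. B cell markers summed to 15.5 to 18.8 FPKM in Hspa9 cKO and 9.75 to 12.7 FPKM in WT, nearly all of it Cd79b (1 of 1 tested higher), with Cd79a, Ebf1, Pax5 and Ms4a1 among the unlisted ones. Myeloid and dendritic markers summed to 15.9 to 17.4 FPKM in Hspa9 cKO and 9.94 to 18.2 FPKM in WT, most of it Lyz2. Of the 2 tested 0 were called, and Itgam, Adgre1, S100a9, Zbtb46, Siglech and Cd74 were unlisted. Later thymocyte markers summed to 30.4 to 33.0 FPKM in Hspa9 cKO and 38.9 to 40.2 FPKM in WT, with 2 of 6 tested genes lower. Erythroid markers summed to 22.2 to 26.1 FPKM in Hspa9 cKO and 37.2 to 45.4 FPKM in WT (2 of 2 lower), nearly all of it Hba-a2 and Hbb-bt. NK and gamma-delta markers summed to 206.6 to 219.3 FPKM in Hspa9 cKO and 203.3 to 234.8 FPKM in WT (1 higher and 1 lower of 3), mostly Gzma and Nkg7. Stromal markers summed to 62.5 to 69.6 FPKM in Hspa9 cKO and 48.0 to 51.9 FPKM in WT, nearly all of it Epcam and Pecam1. Of these 1 of 2 tested was higher, and Krt5, Krt8, Foxn1, Psmb11 and Pdgfra were unlisted. DN3 markers summed to 2997 to 3379 FPKM in Hspa9 cKO and 2328 to 3091 FPKM in WT, with 7 of 14 higher and 1 lower. The part of these shifts in the changes of the stress-response genes was not tested.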

How the data were processed

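Per the labels' protocols, messenger RNA was isolated from total RNA with a poly(A) module or an rRNA removal kit (which one is not given) and copied from random primers. The submitters' processing notes name cutadapt 1.9.1 and the build mm10; no source used here names the aligner, assembler, caller of events or annotation. The authors deposited FPKM for each event of transcript structure in each library, without counts, so no counting error can be given. An event's FPKM depends on how reads were divided among transcripts.

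Start events were summed per gene (11276 genes) or, with none, end events (477 genes), after repeated rows were dropped, for events whose edge lay inside the annotated gene of that ID (GENCODE M21); 24119 of 27390 start events, with 89.8% of their FPKM, met this. Genes that reached 1 FPKM in 3 or more libraries entered a test of log2(FPKM + 1) with limma 3.58.1 in R 4.3.3 (trended, robust variances, adjusted p under 0.05, no covariates); a fold on this scale understates the change of low genes. The test was tried on simulated data. Single values were tested with exact two-sided permutation tests. The 10 genes and the lists were chosen with earlier results of these data known. Named from each list were up to 3 called genes a direction, those of smallest adjusted p; Phgdh, Psat1 and Fam129a's values and the markers were picked afterwards. Libraries correlated at 0.955 to 0.963 within groups and at 0.929 to 0.938 across groups (Pearson, across genes, which are not independent replicates). Alternatives were another pseudocount, other filters and scalings, ends before starts, table IDs alone, plain variances, a replicate block, leaving out each library and, added after seeing the data, assignment by exon edge.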

Additional observations from a re-analysis of the deposited data

Results flagged for a closer look

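Signal at the first exon of Cebpg appeared outside the levels used, because the tables list that start event under the gene ID of Gm44836. It stood at 7.45 FPKM in Hspa9 cKO replicate 2 and at 5.21 FPKM in Hspa9 cKO replicate 3, and it was unlisted in Hspa9 cKO replicate 1 and in the 3 WT libraries. The exact permutation test of 3 against 3 libraries cannot give a p below 0.1 for any pattern, and the difference was not tested.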

How the results depend on the processing

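Over the alternatives tried, Atf5 remained called higher and Atf4 remained not called wherever they were tested. Trib3, Chac1 and Nupr1 also stayed called higher wherever they were tested. These 3 genes reached 1 FPKM in the Hspa9 cKO libraries alone, so their staying called is a description and not a check. Leaving out each library in turn gave log2 changes of 2.97 to 3.07 for Atf5, 4.07 to 4.53 for Trib3 (6.94 with a pseudocount of 0.1), 0.64 to 0.81 for Ddit3 and -0.68 to -0.11 for Atf4. The fitted changes of Chac1 and Nupr1 rest on the pseudocount, as WT was listed at 0, and are not given as sizes. With a filter at 5 FPKM, 3 of the stress-response genes were called higher, since Chac1 and Nupr1 then had too low a level to be tested; without single libraries 4 to 5 were called higher, Ddit3 being the one lost. Same-numbered libraries did not deviate together (correlations of -0.0257 to 0.0196). With 3 libraries per group this cannot exclude that the numbers pair the samples, and the labels name no pairing. With the replicate block 144 genes were called higher and 82 lower (745 and 518 without it), 11 and 0 of the other pathway genes (20 and 1 without it), and Ddit3 was not called (limma, adjusted p = 0.0615). Among the genes named from the lists, the block also ended the calls of Yars, Cars, Sars, Jdp2, Bbc3, Ppp1r15a, Xbp1, Nfe2l1, Mafk and Klf2. Without single libraries 281 to 491 genes were called higher and 211 to 333 lower, and 14 to 19 and 0 to 1 of the other pathway genes. Rescaling by trimmed means gave 580 higher and 681 lower (593 and 652 by median ratios), and 3 other pathway genes were lower under trimmed means. Without single libraries, the difference in the long-form share of Atf4 starts ran between -46.9 and 0.736 percentage points (0.736 without WT replicate 1). That in Ddit3 starts running to exon 3 ran between -0.154 and 0.154 FPKM, below 0 without Hspa9 cKO replicate 2 (-0.154) or WT replicate 2 (-0.0524). That in the Mars end ran between -4.07 and 2.50 FPKM, above 0 without Hspa9 cKO replicate 1 (2.50) or WT replicate 3 (0.397). With ends used before starts, Atf4 had no testable value. The cause of these shifts was not tested, and unknown depth limits the low values of Trib3, Chac1 and Nupr1 in WT.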
